A study of Homo sapiens with 42 samples.

Results

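The accessibility of 10 gene loci was followed: SPI1, CEBPA, IRF8, GFI1, RUNX1, MYB, MEIS1, FLI1, LMO2 and FLT3, genes that regulate blood cell formation and are known from leukaemia. They are 10 of the 19970 protein-coding genes that RefSeq places on chromosomes 1 to 22 and X. A locus is a gene extended by 100 kb at both ends, and a peak is counted there when its summit lies inside, so each locus spans 203 to 462 kb and 9 of the 10 hold at least 1 other gene. The measurements are ATAC-seq peak lists of 42 samples, in which a transposase marks DNA that nucleosomes leave open. MV411, labelled acute myeloid leukemia, was exposed for 4 h to FHT-1015, a dual inhibitor of SMARCA4 and SMARCA2, or to DMSO as the negative control, with 3 biological replicates of each. The same pair of treatments, time and number of replicates was used in 6 reference lines, which were the prostate adenocarcinoma line 22RV1, the colorectal adenocarcinoma line HCT116, the invasive breast carcinoma line DU4475, the rhabdomyosarcoma line RD, the melanoma line A375 and the uveal melanoma line 92-1. All lines are labelled WT for genotype, and each is an established line of tumour cells, so MV411 stands for 1 leukaemia line and not for the disease.

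SMARCA4 and SMARCA2 are the motor subunits of BAF complexes, remodelling machines that slide or evict nucleosomes and keep many enhancers open. In the myeloid lineage, PU.1 (the product of SPI1), RUNX1, MYB and the C/EBP factors bind such enhancers, including those of each other's genes, and SMARCA4 is known to be needed for growth of acute myeloid leukaemia cells. MV411 is known to carry a fusion of KMT2A with AFF1, under which MEIS1 is typically active, and an internal tandem duplication in FLT3.

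Promoters that overlapped a region open in all DMSO samples of MV411 are shown, because most such regions at gene starts were kept after FHT-1015, as described further on. The RefSeq table of GRCh38.p14 promoters held 7 of the 10 members (250 bases before to 50 after a gene start). SPI1, FLI1 and LMO2 had no entry, and both entries of IRF8 and the upper one of GFI1 overlapped no region and are not printed. Capitals mark matches, on either strand, to 8 short motifs. For PU.1 the letters were GAGGAA, for RUNX proteins TGTGGT, for the start of a site of C/EBP proteins TTGCNNA, for GATA factors AGATAA, for the AP-1 dimer TGACTCA, for MYB proteins CAGTTG, for proteins of the E-box type CAGCTG, and for SP and KLF proteins GGGCGG. Matches that overlap were each counted.
MYB (chr6:135181058-135181357, plus strand): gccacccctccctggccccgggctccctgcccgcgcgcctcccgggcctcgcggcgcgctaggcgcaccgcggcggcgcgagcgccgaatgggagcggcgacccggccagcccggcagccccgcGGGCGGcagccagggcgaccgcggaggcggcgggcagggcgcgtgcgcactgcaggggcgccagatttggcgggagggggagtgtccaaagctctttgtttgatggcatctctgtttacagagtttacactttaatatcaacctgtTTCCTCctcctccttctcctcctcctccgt
RUNX1 (chr21:34888650-34888949, minus strand): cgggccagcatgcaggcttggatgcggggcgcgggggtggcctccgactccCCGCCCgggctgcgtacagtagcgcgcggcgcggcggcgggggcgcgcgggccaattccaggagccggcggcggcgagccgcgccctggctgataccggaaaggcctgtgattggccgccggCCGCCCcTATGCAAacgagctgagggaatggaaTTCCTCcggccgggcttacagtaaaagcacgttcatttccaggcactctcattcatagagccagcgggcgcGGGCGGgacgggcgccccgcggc
CEBPA (chr19:33302485-33302784, minus strand): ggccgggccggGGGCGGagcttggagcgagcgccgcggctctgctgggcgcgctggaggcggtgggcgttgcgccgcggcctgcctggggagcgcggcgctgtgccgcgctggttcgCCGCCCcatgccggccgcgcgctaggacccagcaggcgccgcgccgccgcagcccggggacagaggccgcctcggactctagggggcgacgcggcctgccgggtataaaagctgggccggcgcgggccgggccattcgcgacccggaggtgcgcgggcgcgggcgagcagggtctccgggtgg
GFI1, the middle start (chr1:92486050-92486349, minus strand): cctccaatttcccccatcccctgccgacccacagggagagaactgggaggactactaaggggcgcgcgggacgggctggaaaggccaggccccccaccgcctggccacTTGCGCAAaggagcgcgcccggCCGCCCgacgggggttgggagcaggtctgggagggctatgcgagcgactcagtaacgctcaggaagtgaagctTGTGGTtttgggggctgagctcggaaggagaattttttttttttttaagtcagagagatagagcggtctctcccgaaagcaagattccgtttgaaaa
GFI1, the lower start (chr1:92483765-92484064, minus strand): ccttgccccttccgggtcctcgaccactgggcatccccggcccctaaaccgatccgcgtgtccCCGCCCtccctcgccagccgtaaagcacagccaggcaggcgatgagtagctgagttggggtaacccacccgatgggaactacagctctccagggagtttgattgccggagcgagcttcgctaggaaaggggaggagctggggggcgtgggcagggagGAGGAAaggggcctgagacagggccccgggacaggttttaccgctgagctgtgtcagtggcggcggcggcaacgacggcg
MEIS1 (chr2:66434875-66435174, plus strand): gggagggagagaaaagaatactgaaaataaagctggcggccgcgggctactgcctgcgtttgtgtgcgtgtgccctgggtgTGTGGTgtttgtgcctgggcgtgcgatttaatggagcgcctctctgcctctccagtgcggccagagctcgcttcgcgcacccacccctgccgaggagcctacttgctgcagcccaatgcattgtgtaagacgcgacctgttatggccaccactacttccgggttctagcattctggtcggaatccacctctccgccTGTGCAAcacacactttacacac
FLT3 (chr13:28100527-28100826, minus strand): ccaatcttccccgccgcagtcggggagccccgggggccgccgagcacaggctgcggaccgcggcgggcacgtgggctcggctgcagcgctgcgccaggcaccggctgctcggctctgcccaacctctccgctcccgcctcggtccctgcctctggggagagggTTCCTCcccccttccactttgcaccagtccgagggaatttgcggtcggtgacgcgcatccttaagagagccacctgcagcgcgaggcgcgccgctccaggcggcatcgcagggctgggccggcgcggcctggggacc
The 7 promoters printed were rich in G and C, from 58.3% in MEIS1 to 80.7% in CEBPA. Of all 35116 promoters of this length in the table, 27.9% held the PU.1 motif, 13.1% that of RUNX, 33.1% that of C/EBP, 10.3% that of GATA, 4.95% that of AP-1, 11.4% that of MYB, 17.9% the E-box and 45% the SP/KLF motif. The PU.1 letters occurred at MYB, RUNX1, FLT3 and the lower GFI1 start. These matches describe letters in this window and nothing more.

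The deposited lists held 114291 to 431956 peaks per sample. They were called at a lenient threshold, so counts below use strict peaks, those with a −log10 q of at least 5, of which a sample had 1412 to 121774. Reads per sample are unknown, and the background pileup recovered from the peak values served as a stand-in for depth. It was 0.495, 0.466 and 0.4 in the DMSO samples of MV411 and 0.267, 0.26 and 0.27 in its FHT-1015 samples, so the treated samples were the shallower ones without overlap. Strict peaks over the genome numbered 121774, 111063 and 105420 with DMSO and 53339, 52664 and 53585 with FHT-1015. The part of depth in the counts that follow was not tested directly. Counts from lists drawn down to a common background, and from lists cut to equal length, are therefore given beside them. A bulk peak also averages all cells of a culture, so fewer cells with an open site and less opening per cell cannot be told apart.

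The loci were first compared between MV411 and the other lines under DMSO, to see whether they were open in the leukaemia line as their role implies. Among the 50000 strongest peaks of each sample, the loci of MYB, MEIS1, IRF8 and FLI1 held more peaks in MV411 than in the mean of the other 6 lines. MYB, a factor that keeps progenitors dividing, had 6, 12 and 10 such peaks in MV411. HCT116 had 4, 5 and 3, and only DU4475 reached the range of MV411, with 11, 9 and 9. MEIS1, a homeobox partner of HOX proteins, had 9, 11 and 7 in MV411 and 11, 12 and 10 in RD, but no peak in any DU4475 sample. HCT116 (9, 2 and 8), 22RV1 (8, 7 and 6), A375 (7, 3 and 4) and 92-1 (3, 7 and 2) reached the range of MV411 too. IRF8, a factor of monocytes and dendritic cells, had 5, 7 and 6 in MV411 against 8, 7 and 6 in HCT116 and 1 to 5 in the other 5 lines. FLI1, an ETS factor of stem cells and megakaryocytes, had 13, 15 and 14. HCT116 (15, 11 and 18), 22RV1 (13, 14 and 16) and RD (14, 12 and 10) overlapped it. By this count no called locus was thus open in MV411 alone. The DMSO lists of HCT116 held 22667 to 25702 strict peaks and those of RD 41806 to 48752. Their 50000 strongest therefore included peaks under the strict threshold. The same held for DMSO replicates 2 and 3 of 92-1 (25397 and 14266 strict peaks) and DMSO replicate 3 of A375 (26365) and of DU4475 (48864). With strict peaks, MV411 lay above every DMSO sample of the other lines at MYB, MEIS1, IRF8 and FLI1. At IRF8 it had 17, 19 and 16 against 3 in each HCT116 sample. MV411 also had the most strict peaks over the genome, 105420 to 121774 with DMSO.

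The differences of log2(peaks + 1) were 1.19 ± 0.284 for MYB, 0.99 ± 0.271 for MEIS1, 0.75 ± 0.242 for IRF8 and 0.42 ± 0.135 for FLI1 (± SE). Their Benjamini-Hochberg adjusted p in limma were 0.000761, 0.00279, 0.0092 and 0.00832. Of 9 members tested (GFI1 fell under the minimum of a mean of 3 peaks), these 4 were higher and none was lower, where 13.9% of 17435 loci were higher and 48.0% lower. The median difference was 0.35 over the members and -0.37 over all loci. SPI1 (9, 11 and 8) was at -0.2 ± 0.127 and did not pass. Its locus holds 7 other genes and had 7 to 16 of the strongest peaks in every DMSO sample of every line. The calls of FLI1 and IRF8 were lost without DMSO replicate 2 of MV411 (adjusted p = 0.0588 and 0.0689 in limma). With strict peaks, all 10 members were higher in MV411, by 0.93 (SPI1) to 2.74 (MEIS1), but so were 55.9% of 17893 loci. MEIS1 had 20, 19 and 26 strict peaks in MV411 and none in any sample of DU4475 or HCT116, treated or not. Among the 50000 strongest, however, HCT116 had 9, 2 and 8 at MEIS1 with DMSO. Its DMSO lists held only 22667 to 25702 strict peaks over the genome.

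The marker lists matched the label only in part. Of 18 myeloid receptor and effector loci tested, MPO, LYZ and PTPRC were higher and CD68 and FCGR1A lower among the strongest peaks, a share of 16.7% higher against 13.9% of all loci. No locus of the muscle, melanocyte, intestine, epithelium or erythroid lists was higher. Loci that were higher in the remaining lists included MS4A1 of the B cell list, BCL11B of the T cell list and FOXA1 of the prostate list. All counts are from limma with Benjamini-Hochberg adjustment.

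FHT-1015 was then compared with DMSO in MV411. All 10 loci had fewer strict peaks with FHT-1015, and at none did the 2 groups of 3 samples overlap. The same absence of overlap was found at 77.3% of all 18611 loci tested. Of these, limma called 81.1% lower after Benjamini-Hochberg adjustment. CEBPA and IRF8, both regulators of myeloid differentiation, kept the smallest shares at this threshold. The place of CEBPA did not hold at others: at a −log10 q of at least 10 its log2 difference was -0.94 and that of MEIS1 -1.4, and at q under 0.05 it was -0.34 and not called by limma. At CEBPA, the gene of the C/EBP factor that drives granulocyte formation, strict peaks numbered 19, 14 and 14 with DMSO and 5, 4 and 6 with FHT-1015. The treated mean was 31.9% of the control mean. At IRF8 the counts were 17, 19 and 16 against 8, 5 and 6, or 36.5%. Every treated sample of both loci had at most 8 strict peaks and every control at least 14. At SPI1 they were 20, 18 and 18 against 8, 12 and 9, or 51.8%. At GFI1, a zinc finger repressor that favours granulocytes over monocytes, they were 13, 13 and 12 against 5, 8 and 6, or 50%.

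Factors of stem and progenitor cells followed the same direction. FLI1 had the most strict peaks of the 10 loci, 36, 27 and 32 with DMSO, and 13, 14 and 13 with FHT-1015 (42.1%). MEIS1 had 20, 19 and 26 against 9, 8 and 10 (41.5%). MYB had 23, 22 and 22 against 11, 15 and 9 (52.2%). At all 3 loci the highest treated sample stayed below the lowest control. RUNX1, the DNA-binding subunit of core binding factor, had 22, 19 and 22 against 11, 10 and 13 (54.0%). LMO2, a LIM protein that joins TAL1 and GATA factors in one complex, had 15, 15 and 14 against 8, 9 and 7 (54.5%). The receptor gene FLT3, whose product is a tyrosine kinase of early progenitors, kept the largest share, with 23, 15 and 16 against 12, 11 and 9 (59.3%). Per 100 kb, a scale that allows loci of different length to be compared, FLI1 (9.65) and MYB (9.39) were the densest with DMSO and RUNX1 (4.55) the sparsest. With FHT-1015 the values ran from 2.46 at RUNX1 to 4.9 at MYB.

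**Figure D1:**
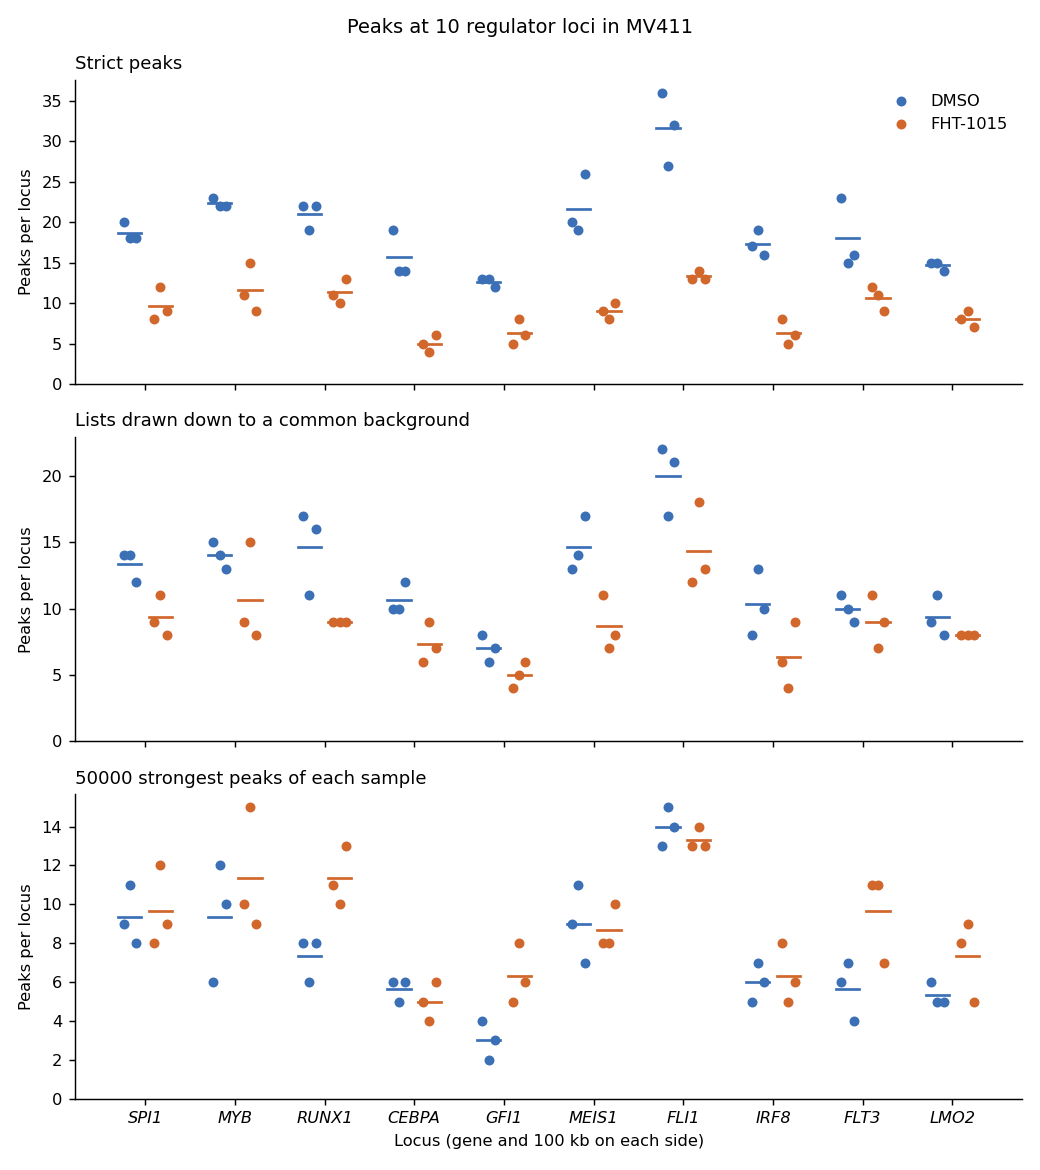
Peaks per locus (vertical axis) at the 10 loci in MV411, with 1 point per sample and a bar at the mean of 3, for DMSO and FHT-1015. In the upper panel, of strict peaks, the groups do not overlap at any locus, and 77.3% of all loci are lower without overlap. In the middle panel, after lists were drawn down to a common background, they overlap at MYB, GFI1, FLI1, IRF8, FLT3 and LMO2. The share of all loci without overlap was not counted there. In the lower panel, of the 50000 strongest peaks, RUNX1 and GFI1 lie higher with FHT-1015 without overlap, as do 27.2% of all loci.

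The differences of log2(peaks + 1) ran from -1.47 ± 0.177 at CEBPA to -0.69 ± 0.176 at FLT3 (± SE), with limma adjusted p of 0.000348 and 0.008 after Benjamini-Hochberg adjustment. All 10 passed the test, as did 15092 of 18611 loci (81.1% lower and 0.0161% higher). Groups without overlap, treated lower, were found at 77.3% of all loci. A count of 10 of 10 stands beside a background of this size and is not a result about these loci. Their median difference was -0.91 and that of all loci -0.72. Summed over the 10 loci, strict peaks fell from 208, 181 and 192 to 90, 96 and 88, or from 194 ± 13.6 to 91.3 ± 4.16 (SD, n = 3).

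With all 6 MV411 lists drawn down to a common background, 2 of the 10 loci had fewer peaks by the same test: MEIS1 at -0.71 ± 0.178 and RUNX1 at -0.63 ± 0.165 (limma adjusted p = 0.0288 and 0.0335). MEIS1 then had 13, 14 and 17 peaks with DMSO and 11, 7 and 8 with FHT-1015. RUNX1 had 17, 11 and 16 against 9 in each treated sample. Of all loci, 18.8% of 17557 were called lower, so 2 of 10 again lies near the background. The other 8 members had differences from -0.66 at IRF8 to -0.15 at FLT3 that did not pass. SPI1, with 14, 14 and 12 against 9, 11 and 8, missed the threshold narrowly (adjusted p = 0.051 in limma). The sum over the loci was 127, 120 and 125 against 85, 93 and 85, still without overlap. The median over the members was -0.47 and over all loci -0.27.

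**Figure D2:**
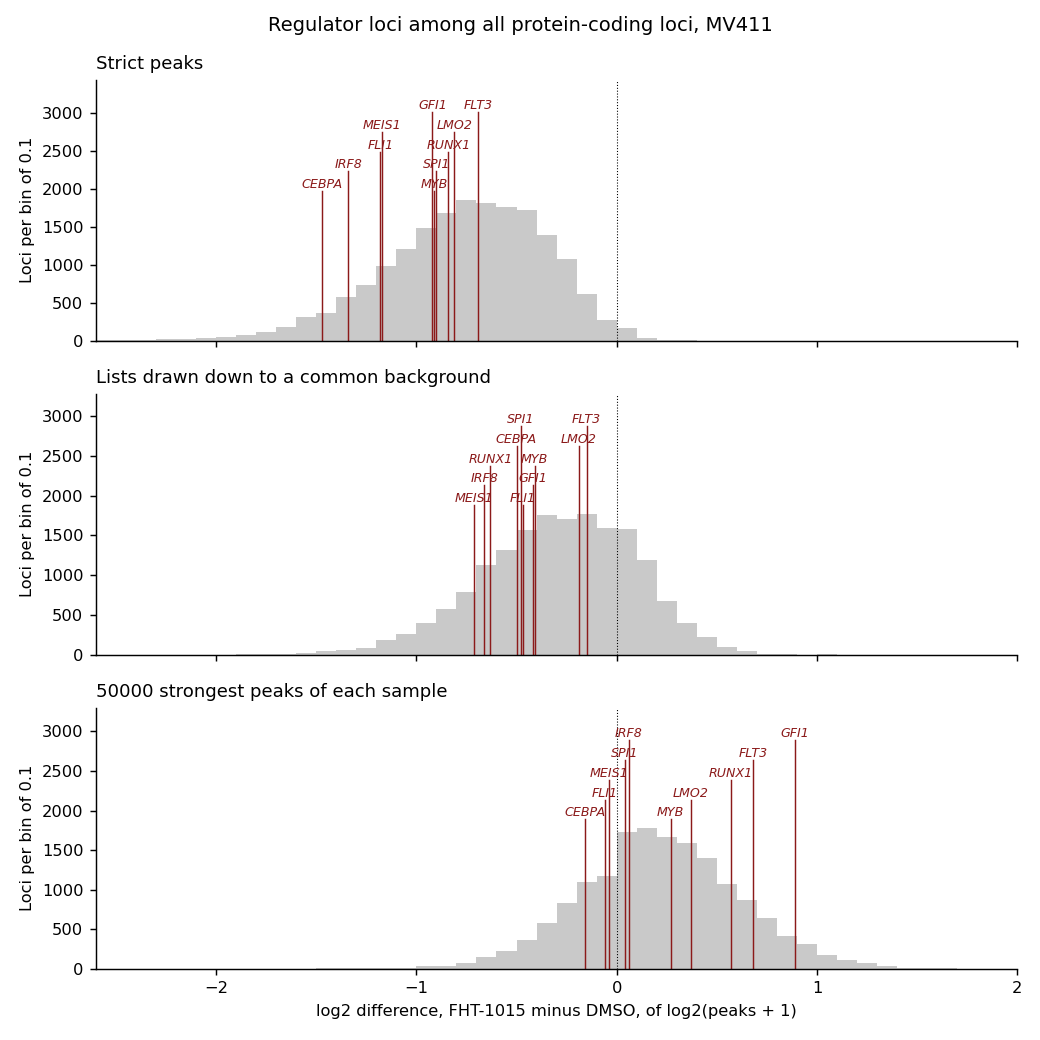
Number of protein-coding loci (grey bars, vertical axis) by the log2 difference between FHT-1015 and DMSO in MV411 (horizontal axis), with the 10 loci as red lines, for 3 ways of counting peaks. The median of all loci moves from -0.72 with strict peaks to -0.27 at a common background and 0.21 in lists of equal length, and the 10 loci move with it.

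Lists of equal length show which loci held a larger or smaller part of the strongest peaks. Among the 50000 strongest peaks of each sample, the 10 loci together had 72, 81 and 71 with DMSO and 87, 96 and 84 with FHT-1015. RUNX1 had 8, 6 and 8 peaks against 11, 10 and 13 with FHT-1015, a difference of 0.57 ± 0.144 on the log2 scale. GFI1 had 4, 2 and 3 against 5, 8 and 6, a difference of 0.89 ± 0.241. The treated lists held 52664 to 53585 strict peaks, nearly all of which this cut kept, and the DMSO lists 105420 to 121774. The treated counts of RUNX1 and GFI1 were the same as with strict peaks, and only their DMSO counts were smaller. Among the 100000 strongest peaks both went the other way, to -0.28 at RUNX1 and -0.04 at GFI1, and 166 loci in all were called higher. Among the 50000 strongest, neither overlapped between the groups, and 27.2% of all loci were higher without overlap. Both calls lay at the threshold (limma adjusted p = 0.0435 and 0.0499) and neither was kept when any 1 of the 6 libraries was left out, which left 1162 to 1723 of all loci called higher. With all 6 libraries, the share of all loci called higher was 19.0% of 16483, and 2.63% were lower, so 2 of 10 is at the background here as well. FLT3, with 6, 7 and 4 against 11, 11 and 7, was at 0.68 ± 0.241 and did not pass (adjusted p = 0.0951 in limma). CEBPA (6, 5 and 6 against 5, 4 and 6) and FLI1 (13, 15 and 14 against 13, 14 and 13) had the same number of strongest peaks within their spread. The median over the members was 0.16 and over all loci 0.21.

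Single regions show what stayed open at these loci. Windows of 500 bp were set around strict summits of all 42 lists, and 420 of 315190 fell in the 10 loci. In MV411, 119 of them were called in all 3 DMSO samples. After FHT-1015, 53 of these were called in all 3 samples (kept), 30 in 1 or 2 (partly kept) and 36 in none (lost). No region at the loci was gained, meaning called in 3 FHT-1015 samples and no DMSO sample, and over the genome 185 were. The lost share was 30.3% against 32.7% over all regions, and the kept share 44.5% against 40.5%. In lists drawn down to a common background 9 of 62 regions were lost (14.5%, against 20.9% over the genome). Without DMSO replicate 2 of MV411 55 of 143 were, and the order turned (38.5%, against 37.1% over the genome).

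Promoters and distal regions differed within the loci. Of 18 regions within 1 kb of the start of any gene, neighbours of the members included, 16 were kept, 2 partly kept and none lost. Both partly kept ones lay at members' own starts, those of SPI1 and GFI1. Over all regions near starts, 81.2% of 12592 were kept and 5.65% lost. Of the 101 distal regions at the loci, 37 were kept and 36 lost (35.6%), where 38.3% of 60886 distal regions were lost over the genome. The distal regions that were lost were weaker in DMSO than those kept. Their median rank by −log10 p was percentile 70.2 of the DMSO lists, and that of the kept ones was percentile 90.2. At percentile 90 and above, 1 of 23 distal regions at the loci was lost (4.35%) and 19 were kept, against 8.14% lost of 14856 over the genome. From percentile 80 to 90 the order was the other way, with 8 of 22 lost (36.4%) against 30.7% of 16966. From 70 to 80, 9 of 24 were lost (37.5%), against 51.1% of 15246. Below percentile 70, 18 of 32 were lost (56.2%), against 66.0% of 13818.

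**Figure D3:**
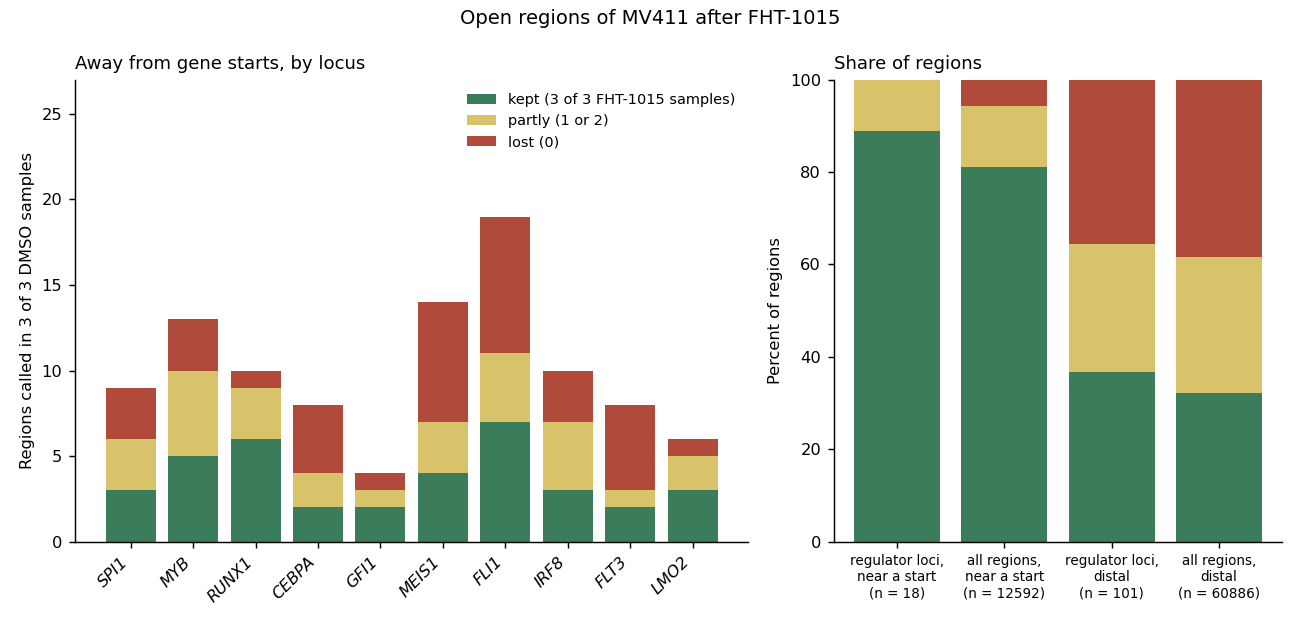
Left, the number of regions away from gene starts that were called in 3 of 3 DMSO samples of MV411, by locus, split by how many FHT-1015 samples had them. Right, the same split in percent for the 10 loci and for all regions: near gene starts 16 of 18 regions at the loci were kept, and of the distal ones 36 of 101 were lost, each close to the share over the genome. Gene starts include those of neighbouring genes.

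Distal regions were also split by whether other lines had them under DMSO. Of 72 that no DMSO sample of another line had, 28 were lost (38.9%, against 48.3% over the genome). Of 21 that at least 2 DMSO samples of at least 1 other line had, 4 were lost (19.0%, against 15.8%). All 8 that were shared with 3 or more other lines were kept, where 78.4% of 5277 were kept and 6.16% lost over the genome. Few losses were complete. Of the 36 lost regions, 5 had no deposited peak of any strength in the FHT-1015 samples (13.9%, against 33.0% of 24040 lost regions over the genome). A weak peak in all 3 was found at 7 (19.4%, against 9.21%). No test was made of these shares, since neighbouring regions are not independent and 3 against 3 samples cannot go below p = 0.1 in an exact permutation test.

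In what follows, above and below a gene mean higher and lower coordinates. Of the members' own start regions called in all 3 DMSO samples, those of SPI1 and of the lower start of GFI1 were partly kept and the others kept. SPI1, FLI1 and LMO2 have no entry in the RefSeq promoter table, so both ends of these genes were taken as starts. The regions found at the ends of FLI1 and LMO2 were too weak for these counts. At FLI1 (chr11:128684454-128684953) 1 DMSO sample had a strict call, and no treated sample had a deposited peak. At LMO2 (chr11:33891611-33892110) 2 DMSO samples and no treated sample had a strict call. The start region of SPI1 covers the upper end of the gene at chr11:47378310-47378809 and no other line had it. The fold enrichment of its peak, which like all folds below is the authors' value and only describes a peak within its own list, was 13.2, 9.63 and 12.9 with DMSO. With FHT-1015 the first sample had no deposited peak there, the others had 6.98 and 4.89, and 1 of 3 samples kept a strict call. The strongest region of the SPI1 locus lies 30.7 kb below the gene inside MADD, at chr11:47323889-47324388. It was open in all 6 other lines and stayed called, with folds of 38.0, 35.6 and 34.6 against 42, 40.8 and 43.5. A locus count at SPI1 therefore mixes a promoter of the leukaemia line with sites that every line has.

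The start of CEBPA (chr19:33302408-33302907), whose sequence is given above, was kept, with folds of 17.7, 14 and 13.5 against 19.0, 14.1 and 18.6. It was open in all 6 other lines. The distal regions of CEBPA fared differently: of 8, 4 were lost and 2 kept. The strongest one lost (chr19:33273802-33274301, 25.9 kb below the gene) had folds of 12.4, 9.42 and 9.62 with DMSO, and with FHT-1015 no peak, 4.36 and 3.76. A pair of regions further below the gene, at chr19:33260783-33261282 and chr19:33261430-33261929, lies about where an enhancer of myeloid cells is known, and was looked up for that reason after the values were seen. The first was partly kept, with folds of 7.69, 8.29 and 6.08 against no peak in 2 samples and 8.28 in the third, and the second was lost.

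IRF8 had its lower gene boundary covered by a region (chr16:85898854-85899353) that was kept, with folds of 14.9, 10.2 and 15.0 against 12.2, 14.3 and 8.14. A single DMSO sample of the other lines had it. The RefSeq promoters of IRF8 lie further inside the gene, so this region is among the distal ones in the counts. The lost region of highest rank, 6.04 kb above the gene (chr16:85928395-85928894), had folds of 14.6, 11.5 and 11.1, and weak peaks of 4.32, 3.94 and 5.41 remained in all 3 treated samples. At GFI1 the region of one start (chr1:92485720-92486219) was kept, with folds of 8.19, 7.2 and 6.77 against 4.34, 5.38 and 6.39. The region of the lower start (chr1:92483475-92483974) was called in 2 of 3 treated samples. Its strongest region, 13 kb below the gene (chr1:92459762-92460261), was seen in no other line and was kept at 15.9, 17.2 and 16.2 against 12.7, 15.4 and 17. GFI1 thus held an MV411 region far from its start that stayed open.

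At RUNX1 the start region (chr21:34888529-34889028) was kept at 10.9, 12.4 and 9.32 against 12.0, 10.9 and 12.4. The region at the upper end of the gene (chr21:35048987-35049486), which the RefSeq table does not give as a start, was kept as well, at 8.9, 7.24 and 8.9 against 6.64, 5.6 and 7.12. RUNX1 had the lowest share of distal loss, 1 of 10. MYB kept both of its start regions, and its strongest region lies inside the gene at chr6:135209739-135210238. That region was called in all 3 treated samples, but at folds of 5.76, 6.08 and 9.09 where the DMSO samples had 21.1, 16.4 and 18.5. A region 52.0 kb below MYB (chr6:135129009-135129508) was lost, with 15.7, 17.4 and 10.7 against a single peak of 4.73.

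At MEIS1, 7 of 14 distal regions were lost, 5 of them inside the gene, while the start region (chr2:66434817-66435316), the strongest of the locus, was kept at 16.5, 16.8 and 13.8 against 17.6, 15.2 and 15.0. FLI1 lost 8 of 19 distal regions. One of these had the highest rank of all 36 lost regions. It lies 2.21 kb above the gene at chr11:128815223-128815722 and had folds of 20.8, 20.1 and 17.3 with DMSO, a single peak of 3.95 with FHT-1015 and strict calls in RD. Inside FLI1, the strongest region of the locus (chr11:128695809-128696308), seen in no other line, was kept at 20.6, 23.1 and 21.5 against 23.6, 18.6 and 22.2. Strong regions of 1 gene, both counted as distal from the gene ends taken as starts, thus took opposite courses. LMO2 had its strongest region inside the gene at chr11:33885294-33885793, with folds of 24.8, 18.4 and 20.5 against 5.15, 7.09 and 10.8, and 2 of 3 treated samples called it.

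FLT3 had the largest share of distal loss, 5 of 8, of which 3 lay inside the gene. Counts of peaks ranked it the other way. Of the members it kept the largest share of strict peaks (59.3%) and fell least at a common background (-0.15). The lost region of highest rank (chr13:27960667-27961166) is 8.4 kb from the start of CDX2, a neighbour in the locus, and was open in 22RV1 and DU4475 as well. The FLT3 start (chr13:28100402-28100901) was kept, at 15.5, 19.1 and 14.6 against 12.4, 13.3 and 16.8. So was the strongest region, inside the gene at chr13:28031480-28031979, at 20.9, 19.7 and 23.7 against 16, 19.1 and 13.9. The duplication that MV411 carries in FLT3 lies in the coding sequence and is not seen in peak lists.

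**Figure D4:**
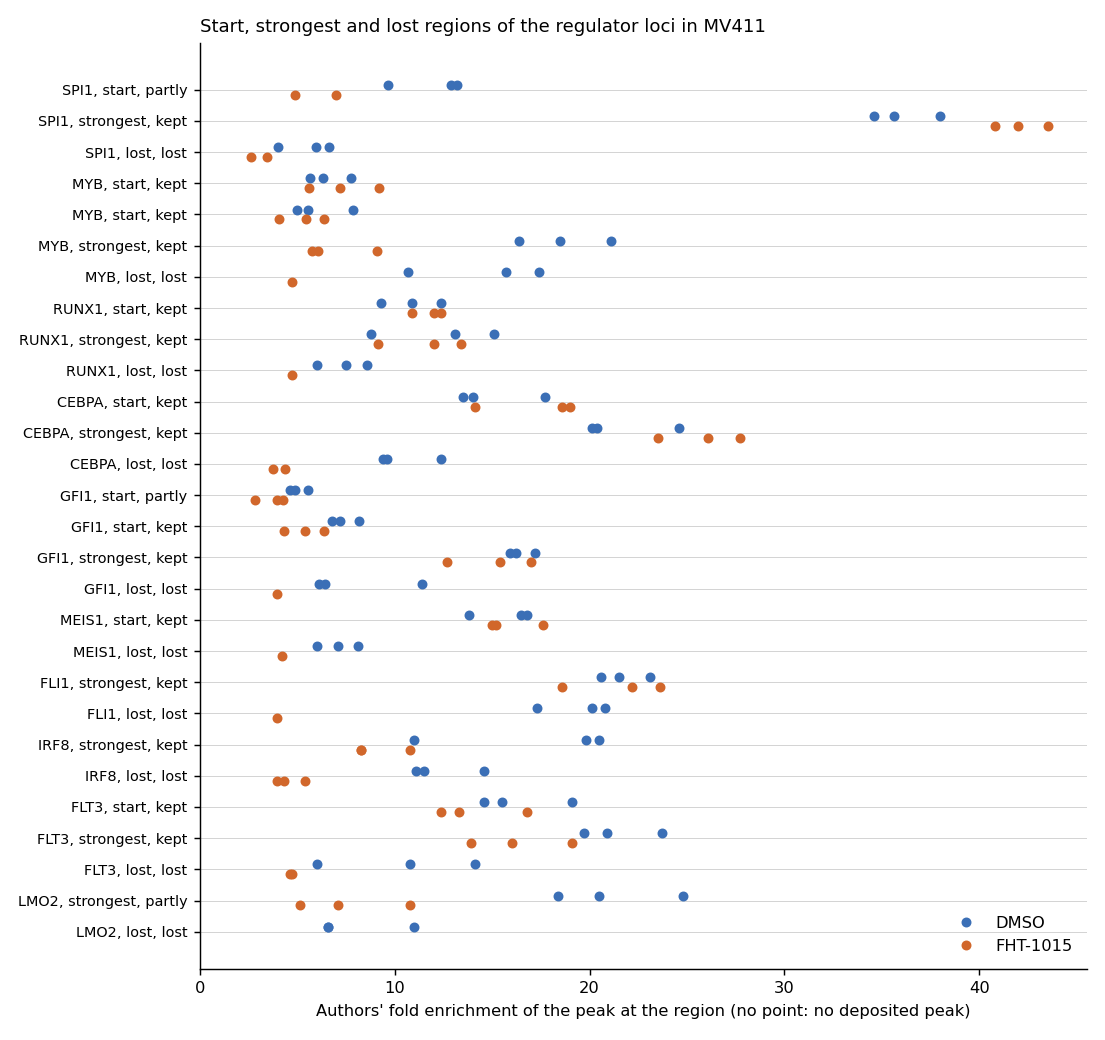
Authors' fold enrichment (horizontal axis) of the peaks at the start, strongest and lost regions of each locus in MV411, with 1 point per sample; a missing point means no deposited peak, and the last word of each label is the outcome with FHT-1015. The starts of CEBPA, RUNX1, MEIS1, MYB and FLT3 hold points of both groups in the same range, and the lost regions of FLI1, MYB and IRF8 have DMSO points above 10.

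In the other lines the same loci were compared with their own DMSO samples. In 22RV1, strict peaks summed over the 10 loci were 76, 100 and 89 with DMSO and 48, 47 and 53 with FHT-1015, and MEIS1, FLI1, IRF8 and FLT3 fell, 4 of 9 tested (32.5% of all loci). None rose (0.067% of all loci). In RD they were 61, 66 and 46 against 25, 12 and 33, and SPI1, MEIS1 and FLI1 fell, 3 of 6 tested (43.4%). MEIS1 and FLI1 were thus called lower in MV411, 22RV1 and RD. In A375 (76, 89 and 27 against 31, 112 and 41), DU4475 (102, 86 and 81 against 70, 75 and 59) and HCT116 (32, 32 and 35 against 29, 44 and 21) limma called no member after Benjamini-Hochberg adjustment (0.0% of all loci in each). At an unadjusted p under 0.05, 2 of 9 members were lower in DU4475, where 20.2% of all loci were, and none in A375 or HCT116 (1.47% and 2.81% of all loci). Lists were also drawn down to a common background within each of these lines but 92-1. The sums over the 10 loci were then 75, 94 and 100 against 39, 34 and 41 in 22RV1 and 62, 48 and 38 against 18, 8 and 28 in RD. The treated mean was 42.4% of the control mean in 22RV1 and 36.5% in RD, where it was 70.7% in MV411. With strict peaks these shares were 55.8%, 40.5% and 47.2%, so the order of the lines changed with the way of counting. In 22RV1 the treated samples had the higher background pileup (0.768 to 1.02 against 0.532 to 0.702), the opposite of MV411. The share at a common background was 81.5% in A375, 77.0% in DU4475 and 108% in HCT116. No test of these shares between lines was made. In 92-1, whose treated samples 2 and 3 had 3 and 1 strict peaks at the 10 loci, a single member was testable and was not called. In lists of equal length the only member called in these 6 lines was RUNX1 in A375, which was higher with FHT-1015 (12, 12 and 10 against 15, 22 and 17). In A375, 14.3% of all loci were called higher and 2.38% lower. The shares in 22RV1 were 0.944% higher and 0.387% lower, and in RD 0.0971% higher and 0.0303% lower.

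**Figure D5:**
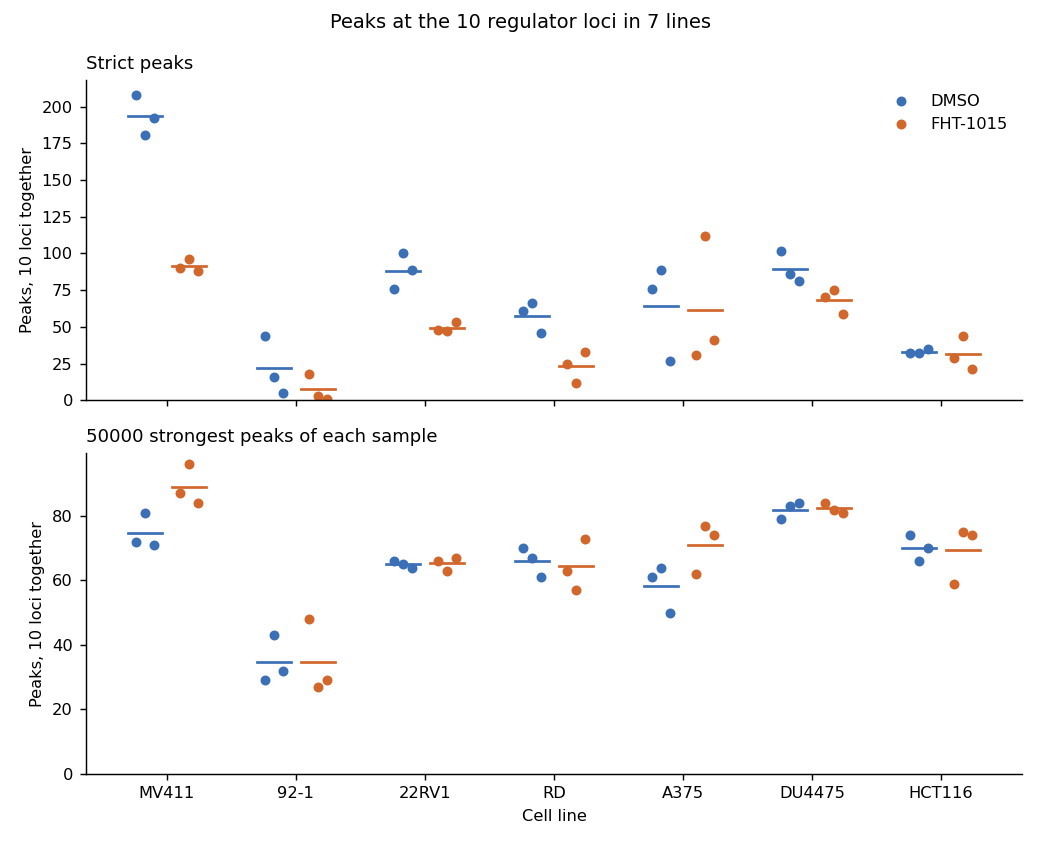
Peaks at the 10 loci together (vertical axis) in each line, with 1 point per sample and a bar at the mean of 3. The upper panel shows strict peaks, highest in MV411 with DMSO at 181 to 208; the lower panel shows the 50000 strongest peaks of each sample, where MV411 with DMSO (71 to 81) lies among the other lines.

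The difference between the effect in MV411 and the mean effect of the 6 other lines was tested directly. In lists of equal length limma called none of the 10 members after Benjamini-Hochberg adjustment, and 0.399% of 17556 loci higher and 0.0114% lower. RUNX1 had the lowest p of the members, at 0.72 ± 0.344 (unadjusted p = 0.0418, adjusted p = 0.349 in limma). It was the only member under 0.05 before adjustment, where 2135 of the 17556 loci were higher and 208 lower. A single member is thus not a result about these loci, and the median was 0.23 over the members and over all loci. Without 92-1, limma called 1545 loci higher and 61 lower, and again no member. With strict peaks limma called no member and no locus. At the same threshold before adjustment, 411 loci were lower and 2 higher. CEBPA was the only member among these, at -1.04 ± 0.474 (unadjusted p = 0.0319, adjusted p = 1.0 in limma). With standard errors of 0.29 to 0.475 in lists of equal length, differences between lines as large as the changes at RUNX1 or GFI1 in MV411 were not detectable after adjustment.

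Regions at the loci were counted in each line as well. The lost share was 28.0% of 50 in 22RV1 and 18.8% of 32 in RD, against 26.4% and 20.8% of all regions there. It was 2 of 47 in DU4475, 1 of 15 in HCT116 and 0 of 30 in A375, where 6.65%, 5.85% and 7.49% of all regions were lost. In 92-1 only 3 regions at the loci were called in all DMSO samples, and 1 was lost.

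Other genes of the pathway were counted the same way. Of 20 further regulators of blood cells, 19 were called lower in strict peaks in MV411 with FHT-1015. EGR1 (12, 13 and 8 against 9 in each treated sample) was at -0.24 ± 0.174 and did not pass. The median difference over the 20 was -0.62. The 3 with the largest change were ETV6 (24, 25 and 21 against 7, 6 and 5), ERG (20, 15 and 19 against 3, 7 and 7) and IKZF1 (40, 41 and 38 against 18, 13 and 14). ETV6 and ERG are ETS factors, ETV6 a repressor, and IKZF1 is a zinc finger factor of lymphoid cells. Of 20 myeloid receptor and effector loci, 17 were called lower, with a median of -0.52, led by S100A8 and S100A9, which lie side by side and share peaks. Both medians lie above that of all loci, -0.72, and the shares called, 95.0% and 85.0%, stand beside 81.1% of all loci (limma, Benjamini-Hochberg adjusted).

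In lists of equal length, 5 of these 20 regulators and 7 of the 20 receptors and effectors were higher and none was lower, where 19.0% of loci were higher. CEBPB, an inducible C/EBP factor, rose from 2, 4 and 3 to 6, 9 and 9 peaks, and CEBPE, which acts late in granulocytes, from 3, 6 and 4 to 10, 8 and 12. LYL1, a relative of TAL1, rose from 4, 5 and 4 to 8, 10 and 7. The neutrophil protease genes ELANE, AZU1 and PRTN3 are neighbours, so their counts are largely the same peaks. ELANE rose from 7, 6 and 6 to 17, 16 and 17. These are places among the strongest peaks and not gains in peaks. With strict peaks limma called CEBPB, CEBPE, LYL1, ELANE, AZU1 and PRTN3 all lower with FHT-1015. With the 100000 strongest peaks only 166 of all loci were called higher.

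The loci whose group means over the 14 groups were most like the sum of the 10 members, by Pearson's r on the 50000 strongest peaks, were those of FCHSD2 (0.909), TMEM275 (0.883), DMBX1 (0.878), P2RY6 (0.877) and FAM241A (0.876), out of 17501 compared. The loci of TMEM275 and DMBX1 overlap, and so do those of FCHSD2 and P2RY6. The 14 group means share the depth of their libraries, and the value is given as a description.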

How the data were processed

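The members of the group and all gene lists were chosen with earlier results of these data known. ATAC-seq libraries were made by a published transposase method with bead selection of fragment size on both sides, per the labels' protocols. The build is hg38 per the submitters' processing notes, which also name Bowtie2, Picard, MACS2, limma and HOMER without giving their roles. Each sample had its own deposited narrowPeak list, without a header, so replicates were not pooled. Each deposited peak carries the authors' fold, the ratio of its pileup to the local background. Both the p-value and the q-value stand in the deposited lists as −log10 values. The deposited score column was not used.

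From these lists, summits (the start plus the offset of the summit) were assigned to RefSeq genes of GRCh38.p14 with 100 kb on each side. Strict peaks had −log10 q of at least 5. The number of peaks per locus, in strict lists or among the 50000 strongest by −log10 p, was tested as log2(peaks + 1) with limma 3.58.1 in R 4.3.3 (trend, two-sided, Benjamini-Hochberg adjustment at 0.05 over all protein-coding loci with a mean of at least 3 peaks). A fold on this scale understates changes of low counts. Loci that overlap share peaks. Pileup and background were solved for from the deposited fold and p-value, with a tolerance of 0.01 on −log10 p. For lists at a common background, pileups were drawn binomially down to 0.5 of the lowest background of the line, and only those still reaching a −log10 p of 5 were used. Regions were 500 bp windows around strict summits, and a call needed an overlap of 100 bp with a strict peak. A gene start came from the RefSeq promoter table for 15811 of 19970 genes and was otherwise taken at either end of the gene, as for SPI1, FLI1 and LMO2. The tests were checked on simulated data. The rule for naming regions took, for each member, its start, the strongest region with DMSO and the lost region of highest rank. Not all regions under this rule are described in the text. The regions at the lower end of IRF8 and the upper end of RUNX1, and the pair below CEBPA, were added outside the rule. Of each gene list, the 3 loci with the largest change were named. Labels call the replicates biological. The alternatives tried were other thresholds, list lengths, flanks and pseudocounts, no filter, a replicate block, and leaving out each MV411 replicate or 92-1. Python 3.11.15 with numpy 2.4.6 and pandas 2.3.3 was used.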

Additional observations from a re-analysis of the deposited data

How the results depend on the processing

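All 10 loci kept the direction of the strict-peak fall in MV411 under every alternative that was run. Their calls were also kept, except at q under 0.05, where CEBPA (-0.34) and GFI1 (-0.37) did not pass, and at a common background, where 2 loci passed. All loci called lower numbered 15092, with q under 0.05 7081, at a common background 3293 and with a replicate block 14665. Replicate numbers did not pair the samples: deviations of same-numbered MV411 samples correlated at -0.0198 to 0.025 in lists of equal length.

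In lists of equal length, the 3135 loci called higher became 166 with 100000 peaks, 1397 with flanks of 50 kb, 932 with a replicate block and 1162 to 1723 when a library was left out. The 433 called lower became 229 with flanks of 50 kb, 77 with the block and 106 to 208 when a library was left out. Of the 10 loci, the 2 called higher became 1 with 25000 peaks (8 tested), 50 kb (9 tested), a pseudocount of 0.5 or the block, and 0 with 100000 peaks, no filter or any library left out (0 to 0). With 100000 peaks, 1 was called lower and 8 changed sign: SPI1 -0.43, MYB -0.02, RUNX1 -0.28, GFI1 -0.04, MEIS1 0.02, IRF8 -0.53, FLT3 -0.03 and LMO2 -0.38. Flanks of 50 kb turned SPI1 (-0.07) and LMO2 (-0.09), and 25000 peaks turned CEBPA (0.38). Leaving out a library gave SPI1 -0.11 to 0.15, MEIS1 -0.19 to 0.11 and IRF8 -0.10 to 0.19. The cause was not tested.

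Between lines with DMSO, the 2420 loci higher in MV411 became 1310 with 25000 peaks, 10001 with strict peaks and 10627 with strict peaks without 92-1, an alternative chosen after seeing the data. The 4 members among them became 1 (of 4 that passed the minimum), 10 and 10, and 2 to 4 when a library was left out. SPI1 turned to 0.13, 0.93 and 0.81 in that order. For the difference of effects between lines, the 70 higher loci became 799 with 25000 peaks, 0 with strict peaks, 1545 without 92-1, 0 with strict peaks without 92-1, 32 with the block and 9 to 27 when a library was left out. The 2 lower ones became 23, 0, 61, 47, 1 and 0 to 1, and 4 with no filter. RUNX1 turned to -0.35 with strict peaks and -0.42 without 92-1 as well. Leaving out the line 92-1 thus moved these counts by over 1.5 times, and the cause was not tested.

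Of the regions at the loci, the 36 lost became 3 among the 50000 strongest peaks, 9 at a common background, 20 with an overlap of 250 bp and 40 to 55 when a library was left out. The 0 gained became 4, 1, and 0 to 1 when a library was left out. The lost share of 30.3% became 13.3% with all deposited peaks (19.1% over the genome), 6.0% (14.4%) and 14.5% (20.9%). When a library was left out it was 33.6% to 38.5% (35.7% to 38.0% over the genome). Reads per sample are unknown, so a peak missing from a treated sample may be under its threshold and no limit for a count of 0 can be given.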
